A study of Mus musculus with 8 samples.

Results

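The results concern 3T3-L1 pre-adipocytes that shared a transwell co-culture with RAW 264.7 macrophages, and compare the arrays labelled with serotonin with those that were not. The members were chosen by their sample titles, with earlier results of these data known. Among the arrays of 3T3-L1 cells, 2 carried serotonin in their title (S100 and CS100) and 2 did not (NT and C100). These are 4 of the 8 arrays of the series. The 4 arrays stood for no treatment, 100 µM cortisol, 100 µM serotonin, and cortisol-serotonin with each hormone at 100 µM by the sample labels, all at 48 h. Each condition had 1 array. The other 4 arrays held RAW 264.7 cells from co-cultures under the same 4 conditions. Every array set its sample, in Cy5, against 1 common reference, in Cy3, so that a level below is a log2 ratio of Cy5 to Cy3 and a difference below is a log2 level with serotonin minus the log2 level without it. Because each condition was measured once, p-values below rest on treating the second hormone as an additive effect, and nothing in the labels says how far 2 cultures of the same condition would have differed.

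3T3-L1 is a mouse embryo fibroblast line that can be turned into fat-storing adipocytes, and RAW 264.7 is a mouse macrophage-like tumour line; both are established lines, so that each result is that of 1 cell line. All groups were co-cultured on inserts that let soluble factors pass, and none of the 4 arrays used here is of pre-adipocytes grown alone. Serotonin is a monoamine made from tryptophan. It acts through a family of receptors on the cell surface, most of them coupled to G proteins, and is taken up by a transporter and broken down by monoamine oxidase. Cortisol, a glucocorticoid, enters cells and binds the glucocorticoid receptor, which raises genes such as Fkbp5, Zbtb16, Tsc22d3 and Per1 in many tissues and lowers many genes of inflammation and of matrix breakdown.

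Serotonin was compared in a pair of comparisons that share no array: serotonin minus no treatment, and cortisol-serotonin minus cortisol. Their mean is given with the SD of both (n = 2). That SD says how far the 2 single differences lay apart and does not measure the error of either. Median Cy5 signals were 62 to 79 units and median Cy3 signals 139 to 162.5, over backgrounds of 26.5 to 29. The Cy5 medians were 78 and 79 on the arrays with serotonin and 62 and 67 on those without. Between 45.6% and 47.8% of spots were well above background in both channels, and 0 spots were saturated. The untreated array stood apart in its median log2 ratio after background correction and before normalisation, at 0.42. That median was -0.57 with cortisol, -0.31 with serotonin and -0.49 with cortisol-serotonin. Across the 10995 genes measured on all 8 arrays, log2 ratios had a Pearson correlation of 0.984 between the serotonin and cortisol-serotonin labels, of 0.902 between no treatment and cortisol, and of 0.918 to 0.935 between an array with serotonin and one without, as a description of arrays that share the reference. On the slide, the arrays without serotonin lay at positions 1 and 2 and those with it at positions 3 and 4, on both slides, so that position and serotonin cannot be told apart.

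The labels need a caution before any result. Several genes that glucocorticoids are known to raise were higher on both arrays labelled with serotonin than on the array labelled cortisol. Fkbp5, a co-chaperone that dampens the glucocorticoid receptor, had log2 levels of -0.85 without treatment, -0.71 with cortisol, 0.47 with serotonin and 0.60 with cortisol-serotonin. Zbtb16, a zinc finger transcription factor, had 0.67, 0.48, 2.61 and 2.63 in the same order. Tsc22d3, which encodes the glucocorticoid-induced leucine zipper protein, had -0.22, -1.27, 0.19 and 0.56. In all 3 genes both arrays with serotonin lay above both arrays without it, which was so for 23.3% of all measured genes (and the reverse for 21.6%), and the array labelled cortisol was below the untreated array in 2 of them and slightly above it in Fkbp5. Other genes of this kind were higher on the array labelled cortisol than without treatment, such as Klf9 (1.21 against 0.65) and Pdk4 (1.00 against 0.26). Both were higher again with serotonin and cortisol-serotonin, at 1.44 and 1.52 for Klf9 and 1.69 and 1.79 for Pdk4. Per1 (1.49 against 1.90), Sgk1 (1.14 against 1.88) and Glul (1.07 against 1.23) were lower on the array labelled cortisol than without treatment. Whether the labels cortisol and serotonin were exchanged in these cells was not tested, and the arrays are therefore called by their labels throughout.

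In 3T3-L1 cells, 32 genes rose 2-fold or more in both comparisons on the arrays labelled with serotonin and 16 genes fell by that factor, of 12962 genes whose sample and reference signals were both well above background on the 4 arrays. The higher genes, 0.247% of all, included 3 secreted protease inhibitors of the Serpina3 family, the plasma proteins Orm2 and Orm3, Clca3a1, Fabp4 and Cdo1, with Serpina3m and Serpina3n at the top. The lower genes, 0.123% of all, held 4 matrix metalloproteinases (Mmp3, Mmp9, Mmp10 and Mmp13) and 2 of their inhibitors (Timp1 and Timp3). No gene was 2-fold higher in one comparison and 2-fold lower in the other (0 genes).

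**Figure D1:**
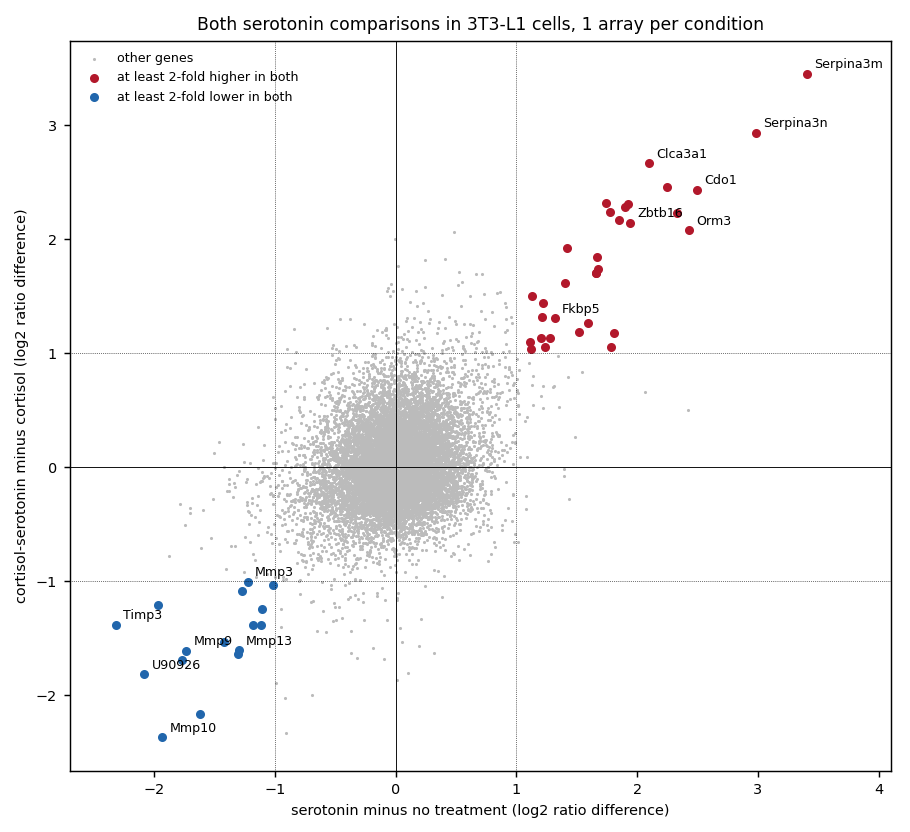
Each point is 1 of 12962 genes, with serotonin minus no treatment on the x axis and cortisol-serotonin minus cortisol on the y axis, both as differences of log2 Cy5/Cy3 between 2 arrays; dotted lines mark a 2-fold change. The 32 red genes lie at least 2-fold above 0 and the 16 blue genes at least 2-fold below 0 in both, and no gene lies past the lines in the other 2 corners.

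Each comparison alone passed more genes. Serotonin minus no treatment gave 67 higher genes (0.517%) and 97 lower genes (0.748%), and cortisol-serotonin minus cortisol gave 176 higher genes (1.36%) and 68 lower genes (0.525%). Of these, 35 higher and 81 lower genes passed only in the first, and 144 higher and 52 lower genes only in the second. Among all genes, 28.5% were above 0 in both and 26.8% below 0 in both, and across genes the comparisons had a Pearson correlation of 0.288 and a Spearman correlation of 0.182, a description in which genes are not replicates. The SD of the mean difference over all genes was 0.29 around a median of 0.01. The split of 32 higher to 16 lower genes depended on the scaling: it was 43 to 37 with the scanner software's processed signals, 35 to 31 after scaling between arrays, 90 to 25 in the Cy5 channel alone, and 516 to 2 with median centring of all spots in place of loess. That centring moved the median of all measured genes up by 0.73, and relative to that shift the split was 35 to 19.

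The Serpina3 genes encode serine protease inhibitors related to human antichymotrypsin and lie side by side in 1 cluster. Serpina3m had log2 levels of -0.03 without treatment and 0.34 with cortisol, against 3.37 with serotonin and 3.79 with cortisol-serotonin. Serpina3n had 0.85 and 1.13 without serotonin, against 3.83 and 4.07 with it. Serpina3i had 0.21 and 0.66, against 1.80 and 1.93. All 3 were taken as genes 2-fold higher in both comparisons, so that their levels are a description, and Serpina3m, at 3.43 ± 0.03 (SD, n = 2), had the highest mean difference of all measured genes, followed by Serpina3n at 2.96 ± 0.03. These were all the measured members of a list of 11, since the others were not well above background on the 4 arrays or had no probe. One of them, Serpina3c, was well above background in Cy5 only on the arrays with serotonin, where its mean log2 signal was 8.64 against 6.68, or at least 3.88-fold higher. The genes of this cluster are near-identical copies in places, so a probe may also take up RNA of its neighbours, and no file tells them apart further. The Cy3 reference signal of Serpina3m was 1.05 lower (log2 difference of -1.05) on the serotonin array than on the untreated array, and in Cy5 alone its difference there was 2.20. In cortisol-serotonin minus cortisol the Cy5 difference of Serpina3m was 3.52.

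**Figure D2:**
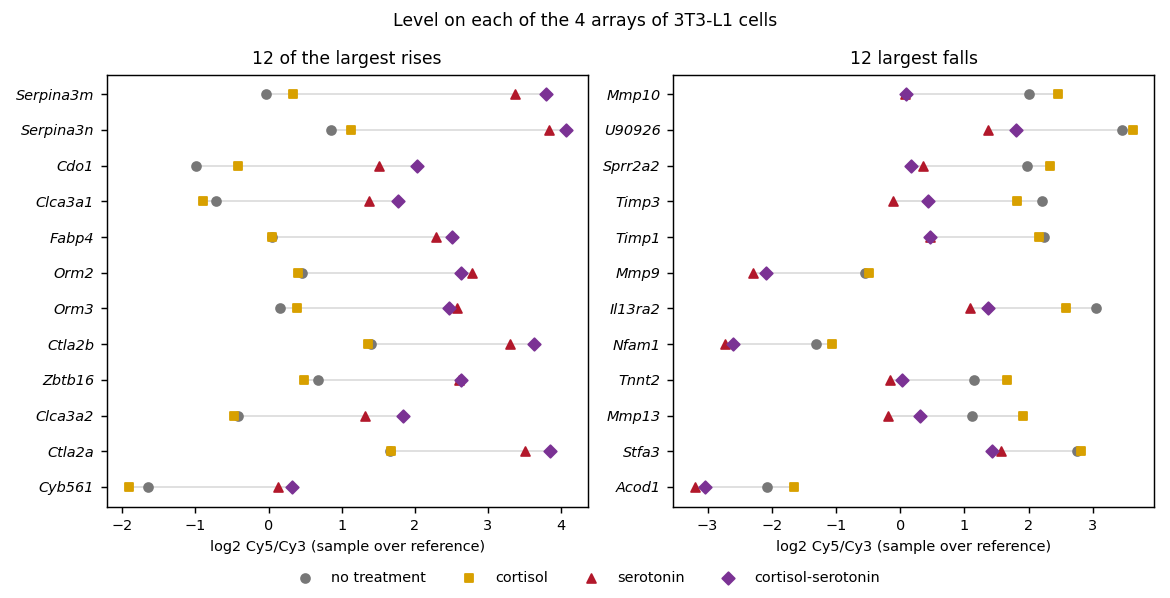
The x axis is the log2 ratio of Cy5 (sample) to Cy3 (reference) and each row is a gene, with 1 symbol per array of 3T3-L1 cells; the left panel has 12 of the genes with the largest mean rise and the right panel the 12 named genes with the largest mean fall, among genes 2-fold changed in both comparisons. In every row both serotonin arrays lie on one side of both arrays without it, for example Serpina3m at 3.37 and 3.79 against -0.03 and 0.34.

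Orm2 and Orm3 encode orosomucoids, carrier proteins of the acute-phase response. Their promoters are shown because both genes were higher together and lie next to each other on mouse chromosome 4. The sequences are those of RefSeq (GRCm38.p6), 250 bases before to 50 bases after the start site, with 3 kinds of match in capitals where present: the glucocorticoid receptor half-site AGAACA, the C/EBP element TTGCGCAA and the TATA box TATAAA, each searched on both strands.
Orm2, chr4:63362199-63362498, plus strand: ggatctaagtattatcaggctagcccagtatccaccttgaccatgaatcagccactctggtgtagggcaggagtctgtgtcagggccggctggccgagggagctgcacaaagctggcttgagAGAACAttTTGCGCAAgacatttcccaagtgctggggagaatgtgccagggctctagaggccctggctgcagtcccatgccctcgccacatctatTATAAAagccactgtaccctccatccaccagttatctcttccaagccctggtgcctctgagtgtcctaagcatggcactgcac
Orm3, chr4:63355908-63356207, plus strand: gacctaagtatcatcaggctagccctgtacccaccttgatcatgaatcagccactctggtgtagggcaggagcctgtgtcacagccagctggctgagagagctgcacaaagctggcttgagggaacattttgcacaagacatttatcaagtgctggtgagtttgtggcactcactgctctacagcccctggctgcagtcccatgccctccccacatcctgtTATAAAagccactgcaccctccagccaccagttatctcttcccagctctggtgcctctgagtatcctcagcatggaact

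The Orm2 promoter held the half-site 128 bases and the C/EBP element 120 bases before the start site, and the promoter of Orm3 held no exact match to either. Both also held the AP-1 element TGANTCA, not in capitals here, 207 and 208 bases before the start site. A pairing of both promoters without gaps, shifted by 1 base, had the same base at 185 of 299 positions (61.9%). The TATA boxes lay 33 bases before the start site in Orm2 and 29 in Orm3. That pairing lines up the AP-1 elements but not the TATA boxes, so its share may understate how alike the promoters are. Orm2 had log2 levels of 0.45 without treatment and 0.40 with cortisol, and of 2.78 with serotonin and 2.63 with cortisol-serotonin, a mean difference of 2.28 ± 0.07 (SD, n = 2). Orm3 had 0.15 and 0.38 without serotonin against 2.58 and 2.47 with it. Both copies are alike enough that probes may share RNA. The half-site occurred in 14.7% of the 8457 measured genes with a promoter in the table. It occurred in 7 of the 21 higher genes with a promoter there (33.3%) and in 2 of the 15 lower genes (13.3%). Of the 7, Serpina3i, Serpina3n, Ctla2a, Ctla2b and Orm2 belong to families of neighbouring copies. The full palindrome, a pair of inverted half-sites with a gap, occurred in 1 of the 8457 and in 0 of the 21. The C/EBP element occurred in 0.4% of measured genes and, among the higher genes, in 1. A match says only that these letters are in the window.

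Of 13 measured members of the acute-phase list, Orm2 and Orm3 included, 11 were above 0 in both comparisons (against 28.5% of all genes) and 2 were below, with a median mean difference of 0.67 against 0.01 over all genes. Orm2 and Orm3 were the 2 that passed 2-fold in both. This and the other gene lists were chosen with earlier results of these data known, so that such counts may partly restate the choice. Lbp, which binds bacterial lipopolysaccharide, had log2 levels of 0.60 and 0.91 without serotonin and 1.60 and 1.87 with it. Steap4, a metalloreductase of adipose tissue, had 0.23 and 0.02 against 1.14 and 1.43. Il1rn, the natural antagonist of the interleukin 1 receptor, had -2.23 and -2.09 against -1.43 and -1.33. Cfb, complement factor B, went the other way, with differences of -0.95 and -1.24.

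Genes with roles in metabolism or transport were also among the higher genes. Fabp4, the fatty acid carrier of adipocytes and macrophages, had log2 levels of 0.05 and 0.05 without serotonin, against 2.29 with serotonin and 2.51 with cortisol-serotonin. Its mean difference was 2.35 ± 0.15 (SD, n = 2), and it passed limma's test over 8 arrays (adjusted p = 0.0178, as 1 of the 8 genes that did so with a rise). Part of that ratio came from the reference channel: the Cy3 signal of Fabp4 was lower on the arrays with serotonin, with a mean difference of -0.78, and Cy5 alone gave differences of 1.59 and 1.41. Cdo1, which turns cysteine into the precursor of taurine, had -0.99 and -0.41 against 1.51 and 2.02. Cyb561, an electron-carrying membrane protein that uses ascorbate, had -1.65 and -1.91 against 0.13 and 0.32, with limma's adjusted p = 0.0178.

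Selenop, the selenium carrier of plasma, had log2 levels of 0.07 and 0.30 without serotonin and of 1.74 and 2.15 with it. Slc6a12, a transporter of betaine and GABA, had -0.91 and -0.96 against 0.49 and 0.66 and passed limma (adjusted p = 0.025). Slc10a6, which carries sulphated steroids, had 1.22 and 2.04 against 3.03 and 3.22. Scara5, a ferritin receptor, Kcnj15, a potassium channel, and Gdpd2, a phosphodiesterase of glycerol lipids, also passed 2-fold in both comparisons, with mean differences of 1.32, 1.68 and 1.68. Tent5b, a poly(A) polymerase, had a mean difference of 1.71 and limma's adjusted p = 0.0259. Clca3a1 and Clca3a2, chloride channel accessory proteins, had 2.38 and 2.03, and the cysteine protease inhibitors Ctla2a and Ctla2b had 2.01 and 2.09. Both pairs are neighbouring copies. Other higher genes were Cfhr2, Rhoj, Ly6c1, Plcxd2, Ifi207, BB237529, S100a7l2, AK037728, AK054449 and an unnamed probe, with mean differences from 1.08 to 1.67. Cfhr2, Gdpd2, Gpr84, Ifit3b, Kcnj15, Ly6c1, Plcxd2, Rdh5, Rhoj, Scara5, Selenop, Slc10a6, S100a7l2, AK037728, AK054449 and BB237529, from among the 48 genes, were named after their values were seen. Of the 43 genes with a current symbol that changed 2-fold in both comparisons and could be placed on the RefSeq gene order, 16 lay within 10 protein-coding genes of another one, in 7 groups, and in 6 of the 7 the members had moved the same way; the exception was S100a7l2 (higher) near Sprr2a2 (lower).

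Of the list of glucocorticoid-responsive genes, 20 of 30 were measured, 11 of them above 0 in both comparisons and 3 below, with a median mean difference of 0.35. Fkbp5 and Zbtb16 rose at least 2-fold in both comparisons: the difference of Fkbp5 was 1.32 and 1.31 (limma adjusted p = 0.0259) and that of Zbtb16 1.94 and 2.15. Others lay above 0 by less or unevenly. Tsc22d3 had differences of 0.41 and 1.83, and Per1, a clock gene, 0.38 and 1.03. Sgk1, a kinase of salt and water handling, had log2 levels of 1.88 and 1.14 without serotonin against 2.71 and 2.66 with it. Pdk4, which restrains glucose oxidation, had 0.26 and 1.00 against 1.69 and 1.79, and Glul, glutamine synthetase, 1.23 and 1.07 against 1.85 and 2.23. Klf9 had differences of 0.79 and 0.30, and Dusp1, a phosphatase of MAP kinases, 0.77 and 0.52. Angptl4, an inhibitor of lipoprotein lipase, had -0.67 and -0.53. The circadian clock list, which shares Per1, had 5 of 11 members above 0 in both and 1 below, with a median of 0.29.

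No serotonin receptor could be followed. Of the 14 receptor genes on the array, 0 had a probe well above background in Cy5 and Cy3 throughout the 4 arrays, and no receptor reached that on more than 1 array, which is a limit of the signal and not a level of 0. Among genes of serotonin synthesis, transport and clearance, 4 were measured and 10 were not well above background, Tph1, Tph2, Ddc and Maob among these. Slc6a4, the serotonin transporter, had log2 levels of -3.63 and -3.87 without serotonin and of -4.27 and -4.17 with it, differences of -0.64 and -0.30, and in Cy5 alone a mean difference of 0.04. Maoa, which breaks serotonin down, had differences of 0.33 and 0.12, Aldh2 0.20 and -0.24, and Aanat -0.17 and -0.25. None of the 4 passed 2-fold in both comparisons. Immediate-early genes, which follow receptor signals soon after they arrive, had 0 of 23 measured members past 2-fold in both comparisons, with 2 above 0 in both and 10 below. Single comparisons passed it for Egr1 (-1.30 against -0.03) and Nr4a2 (-0.34 against -1.12), named here after their values were seen. Dusp6 had -0.78 and -0.57, and Pde4b, which degrades cyclic AMP, -0.69 and -0.69.

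Matrix metalloproteinases, enzymes that cut collagen and other matrix proteins, were 4 of the 16 lower genes, with Mmp10 the lowest. The promoters of 3 that are neighbours on mouse chromosome 9 are shown because AP-1, a factor of the FOS and JUN families, is known to act on them. They are from RefSeq (GRCm38.p6), 250 bases before to 50 bases after the start site. Capitals mark matches to the AP-1 element TGANTCA and to the TATA box TATAAA, searched on both strands.
Mmp3, chr9:7445572-7445871, plus strand: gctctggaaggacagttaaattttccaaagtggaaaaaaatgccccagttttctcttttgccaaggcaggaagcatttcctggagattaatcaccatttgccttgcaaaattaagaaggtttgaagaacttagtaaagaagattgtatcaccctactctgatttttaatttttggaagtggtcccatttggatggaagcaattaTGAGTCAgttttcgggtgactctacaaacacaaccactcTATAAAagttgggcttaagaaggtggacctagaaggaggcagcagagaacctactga
Mmp10, chr9:7502092-7502391, plus strand: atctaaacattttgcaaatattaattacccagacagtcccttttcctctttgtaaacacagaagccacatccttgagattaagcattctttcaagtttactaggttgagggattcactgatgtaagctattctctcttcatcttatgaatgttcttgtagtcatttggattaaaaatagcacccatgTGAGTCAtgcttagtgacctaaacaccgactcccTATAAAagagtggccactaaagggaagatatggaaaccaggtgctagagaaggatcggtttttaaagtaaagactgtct
Mmp13, chr9:7272264-7272563, plus strand: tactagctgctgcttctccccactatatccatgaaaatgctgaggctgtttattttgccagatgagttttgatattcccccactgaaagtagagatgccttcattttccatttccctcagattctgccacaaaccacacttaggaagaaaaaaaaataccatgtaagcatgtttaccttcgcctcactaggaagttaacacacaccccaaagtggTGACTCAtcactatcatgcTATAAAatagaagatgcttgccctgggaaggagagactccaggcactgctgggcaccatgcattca

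The AP-1 match began 46 bases before the start site in Mmp3, 63 in Mmp10 and 35 in Mmp13. It occurred in 7 of the 15 lower genes that had a promoter in the table (46.7%), in 7 of the 21 higher genes (33.3%), and in 6.2% of the 8457 measured genes; the TATA box occurred in 40.0%, 38.1% and 8.8% of the same sets. No test was made of these shares. Mmp10, stromelysin 2, had log2 levels of 2.01 without treatment and 2.45 with cortisol, against 0.08 with serotonin and 0.09 with cortisol-serotonin, a mean difference of -2.15 ± 0.31 (SD, n = 2). Mmp13, a collagenase, had 1.12 and 1.91 against -0.18 and 0.31. Mmp3, stromelysin 1, had 2.02 and 2.24 against 0.79 and 1.24. Mmp9, a gelatinase, had -0.55 and -0.48 against -2.29 and -2.09, with limma's adjusted p = 0.0178. In Cy5 alone the mean differences of the 4 enzymes were of similar size (-2.25, -1.70, -1.01 and -1.71).

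Of 13 metalloproteinases measured, these 4 passed 2-fold in both comparisons. In all, 7 were below 0 in both and 5 above, with a median of -0.21. Mmp2, the other gelatinase, had log2 levels of 0.47 and 0.61 without serotonin and of 0.96 and 1.51 with it, and Adamts2, which trims procollagen, had -0.27 and -0.23 against 0.64 and 0.74. Of 4 inhibitors measured, Timp1 and Timp3 fell. Timp3 had 2.21 and 1.81 against -0.11 and 0.43. Timp1 had 2.24 and 2.16 against 0.47 and 0.46 and passed limma (adjusted p = 0.025), but its Cy3 reference signal was higher on the arrays with serotonin by a mean of 1.21, and in Cy5 alone it was lower by far less, with differences of -0.73 and -0.26. Timp2 had differences of 0.04 and -0.34, and Reck, a membrane-bound inhibitor, 0.27 and 0.46.

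Among 28 measured collagens and structural matrix genes, Col6a1, Col6a2 and Col6a3, the chains of collagen VI, had differences of 0.74 and 1.05, 1.00 and 0.68, and 0.56 and 1.06. Over the list, 16 were above 0 in both comparisons and 6 below, with a median of 0.18, and 0 passed 2-fold in both. Lamc1, a laminin chain, had 0.85 and 0.91, and Loxl2, which cross-links collagen, -1.14 and -0.60. In the plasminogen system, S100a10 had 0.76 and 0.61 and Serpine2 0.44 and 0.80, while Plau, the urokinase, had -1.79 and -0.32. Tnnt2, the troponin T of heart muscle, fell in both comparisons, from 1.15 and 1.66 to -0.16 and 0.02, with a Cy3 signal higher by a mean of 0.61 and a Cy5 difference of -0.94.

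**Figure D3:**
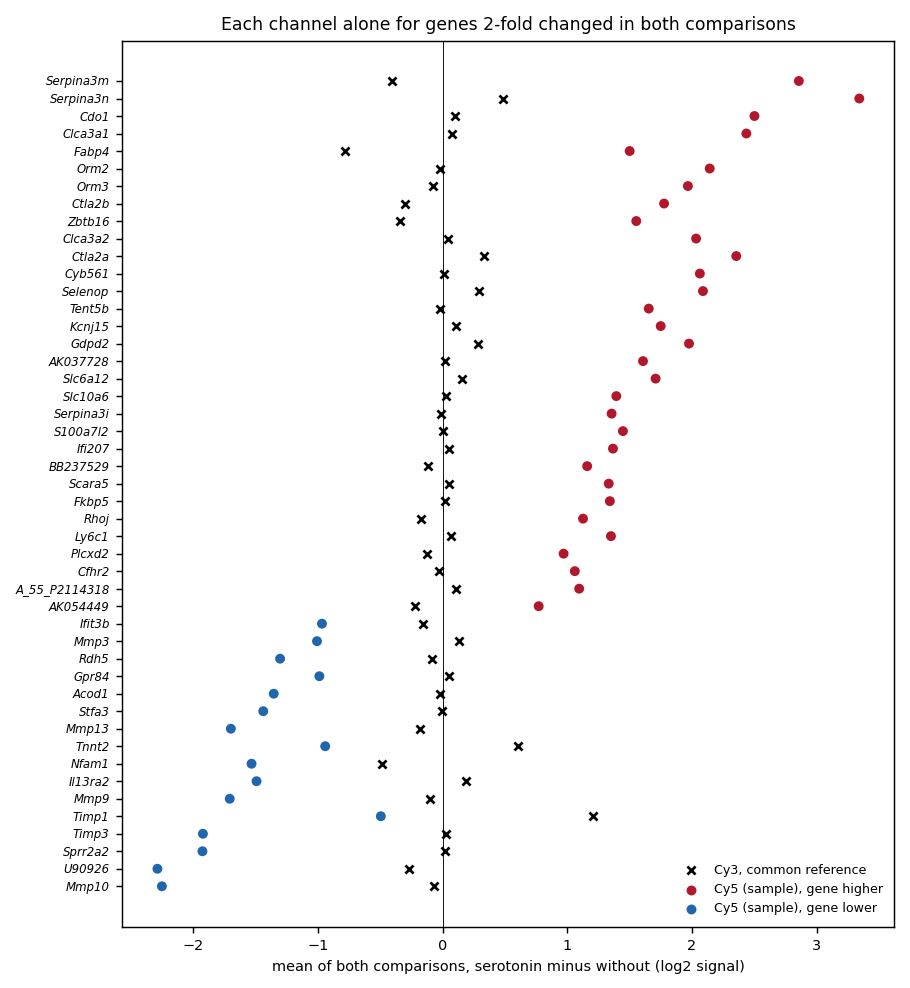
The x axis is the mean over both comparisons of the log2 signal with serotonin minus that without it, in 1 channel alone; each row is a gene 2-fold changed in both comparisons, 1 of the 48 not being drawn, circles are the quantile-normalised Cy5 sample signal (red for higher, blue for lower genes) and crosses the Cy3 reference. All circles drawn lie on the side of their call. The crosses lie within 0.5 of 0 except for Fabp4 (-0.78), Tnnt2 (0.61) and Timp1 (1.21). As means, the crosses can hide larger single values, such as -1.05 and 0.24 for Serpina3m.

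In the Cy5 channel alone, which leaves the reference out, 28 of the 32 higher and 11 of the 16 lower genes were still at least 2-fold changed in both comparisons, and all 48 kept their direction in both. With genes whose Cy3 signal differed by 0.5 or more in either comparison left out, 27 higher and 13 lower genes were counted. The higher genes left out were Serpina3m, Serpina3n, Fabp4, Zbtb16 and AK054449, and the lower genes were Timp1, Tnnt2 and Nfam1. Cy3 differences were -1.05 and 0.24 for Serpina3m, 0.39 and 0.58 for Serpina3n, and -0.12 and -0.56 for Zbtb16. Of the 32 higher genes, 27 had 1 probe, and each of the 16 lower genes had 1 probe.

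Lists of inflammation genes are read here against the 26.8% of all genes below 0 and the 28.5% above 0 in both comparisons; no test was made of them, and the acute-phase list lay mostly above 0. Of 16 chemokines measured, 8 were below 0 in both comparisons and 1 above, with a median of -0.43, and 0 passed 2-fold in both. Cx3cl1, a membrane-bound chemokine, had log2 levels of 0.74 and 0.93 without serotonin and of -0.07 and -0.07 with it. Ccl5 had differences of -0.44 and -1.32. Of 14 cytokines and growth factors measured, 7 were below 0 in both and 3 above. Il6 had 0.20 without treatment and 0.88 with cortisol, against -0.46 and -0.55. Csf2, the granulocyte-macrophage growth factor, had 0.27 and 1.86 against -0.64 and -0.47, and Il1a 0.38 and 1.49 against -0.09 and 0.26. In these 3 cytokine genes the array labelled cortisol was the highest of the 4, which widens the comparison against it. Il33 and Tgfb2 lay above 0, with differences of 0.46 and 0.93, and 0.69 and 0.67.

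Il13ra2, a decoy receptor of interleukin 13, was among the genes that fell at least 2-fold in both, from 3.05 and 2.58 to 1.09 and 1.38. Acod1, which makes the antibacterial metabolite itaconate, fell from -2.07 and -1.65 to -3.19 and -3.03 (limma adjusted p = 0.0329), and Nfam1, a signalling receptor of immune cells, from -1.31 and -1.07 to -2.73 and -2.60 (limma adjusted p = 0.025). Gpr84, a receptor of medium-chain fatty acids, fell from -1.32 and -1.28 to -2.59 and -2.36, and Stfa3, a stefin that inhibits cysteine proteases, from 2.75 and 2.81 to 1.57 and 1.44. Ifit3b, an interferon-induced gene, had differences of -1.02 and -1.03. U90926, Sprr2a2 and Rdh5, a retinol dehydrogenase, completed the 16 lower genes, with mean differences of -1.95, -1.89 and -1.17. Of 26 interferon-stimulated genes measured, 15 were below 0 in both and 4 above; Rsad2 had -0.60 and -1.26 and Ifit3 -0.75 and -0.82. Of 20 NF-kB targets measured, 8 were below 0 in both and 2 above. The 2 above were Tnfaip3, which shuts the pathway off, with 0.76 and 0.82, and Tnfaip2, with 0.40 and 0.60.

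Markers of macrophages moved with these genes and are given beside them, since the cells shared a culture. Of 35 listed markers, 18 were measured in 3T3-L1 cells and all 18 were below 0 in both comparisons (Ucp2 by less than 0.01 in the first), against 26.8% of all genes, with a median of -0.36 (-0.45 and -0.32 in the single comparisons). The log2 of their summed ratios was 1.97 and 2.12 without serotonin and 1.69 and 1.77 with it. Ctss, a lysosomal protease, had log2 levels of -5.53 and -6.14 against -7.28 and -6.65, Itgam -1.12 and -0.84 against -1.58 and -1.58, and Trem2 -3.54 and -3.25 against -4.02 and -3.92. The defining markers Adgre1, Spi1, Mrc1 and the C1q chains were not well above background, and Cd68 and Clec7a had no probe. In bulk RNA, fewer cells of a type and less RNA per cell cannot be told apart. Among genes whose ratio in untreated macrophages was at least 2 log2 units above that in untreated 3T3-L1 cells, the median difference with serotonin was -0.21 over 558 genes, and at 4 log2 units or more it was -0.43 over 118 genes. Nfam1, Acod1 and Gpr84 were the 3 lower genes in the first of these sets, and 0 lower genes were in the second. The first set also held 3 higher genes, Fabp4, Cyb561 and Fkbp5. The part of macrophage RNA in the change of these genes was not tested. Mmp10, Mmp13, Mmp3, Timp3 and Il13ra2 were not measured on all of the macrophage arrays, and Timp1 had a ratio 6.49 log2 units lower in untreated macrophages (-6.49).

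Fat cell genes outside Fabp4 showed little. Of 28 measured genes of adipocyte differentiation and PPAR signalling, 10 were above 0 in both comparisons and 6 below, with a median of -0.01. Pparg, the nuclear receptor that drives adipocyte formation, had log2 levels of 0.68 and 0.92 without serotonin and of 1.15 and 1.29 with it, differences of 0.47 and 0.37. Plin4, a lipid droplet protein, had differences of 0.74 and 0.91, Plin2 had -0.26 and -0.36, Cebpd 0.07 and 0.23, and Lpl, which frees fatty acids from lipoproteins, -0.13 and 0.15. Cebpa and Adipoq, which mark mature fat cells, were not well above background. The same held for Plin1, Cidec, Lep and Cfd. Markers of fibroblasts and pre-adipocytes lay on both sides of 0, with 6 of 16 above in both and 7 below; Pdgfra had 0.96 and 0.81 and Dcn -0.46 and -0.23.

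Of 18 measured genes of arachidonic acid metabolism, 13 were below 0 in both comparisons and 1 above, with a median of -0.21, and 0 passed 2-fold. Pla2g4a, which releases arachidonic acid from membranes, had differences of -0.53 and -0.30, Ptges3 had -0.39 and -0.54, and Ptgs2, the inducible cyclooxygenase, 0.09 and -0.43. Fatty acid elongation, cholesterol synthesis, the cell cycle, the unfolded protein response and glycolysis had medians of 0.07, 0.04, 0.01, -0.03 and -0.02, with 0 genes past 2-fold in both. Among antioxidant genes Cdo1 rose, and Nqo1, a quinone reductase, had differences of -0.95 and -1.40. Gclc and Gclm, the subunits of the enzyme that starts glutathione synthesis, differed in direction, with 0.55 and 0.99 against -0.42 and -0.76. Reference genes had a median of 0.07; Actb had -0.49 and -0.59, and Rplp0 0.18 and -0.04. The directions of these list medians hold for loess; with median centring every list median but that of the metalloproteinase inhibitors was above 0, and relative to the shift of 0.73 chemokines stood at -0.49, macrophage markers at -0.36 and acute-phase proteins at 0.73.

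**Figure D4:**
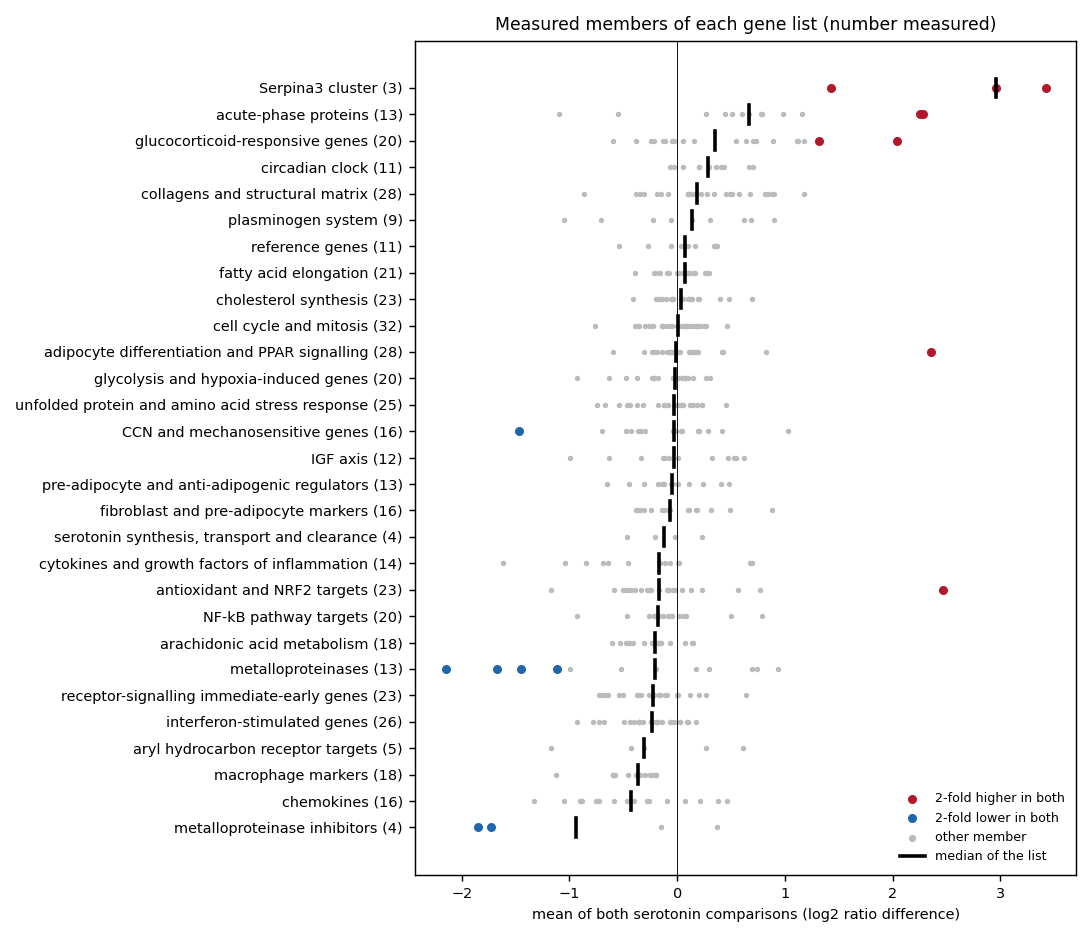
The x axis is the mean of both serotonin comparisons as a log2 ratio difference, and each row is a gene list with its number of measured members; points are members (red or blue where at least 2-fold changed in both comparisons) and black bars list medians. Medians run from -0.94 for 4 metalloproteinase inhibitors to 2.96 for 3 Serpina3 genes, and 21 of 29 lists shown have no member past 2-fold in both.

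With limma over all 8 arrays, the serotonin effect in 3T3-L1 cells passed an adjusted p of 0.05 in 12 of 10995 genes measured in both cell lines (0.109%), of which 8 were higher (0.0728%) and 4 lower (0.0364%), and 1461 genes (13.3%) had an unadjusted p under that value. The higher genes were Fabp4, Cyb561, Tent5b, Slc6a12, Fkbp5, Ifi207, BB237529 and Gda, and the lower genes Timp1, Mmp9, Nfam1 and Acod1. Gda, guanine deaminase, had a fitted difference of 1.19. Leaving out any 1 of the 4 arrays of 3T3-L1 cells leaves 1 comparison and no residual degree of freedom in that line. Such fits therefore cannot tell how far the 12 calls rest on single arrays. In Cy5 alone 0 genes passed, although the mean difference stayed near that of the ratio for Cyb561 (2.06), Mmp9 (-1.71) and Slc6a12 (1.71), and after scaling between arrays 0 genes passed. Many of the larger changes, such as those of the Serpina3 and Orm genes, Cdo1, Mmp10 and Timp3, were outside that test because their probes were not above background on some macrophage array. A fit over 12548 genes above background on the arrays of 3T3-L1 cells was added after seeing the data. It called 15 higher (0.12%) and 6 lower genes (0.0478%), with Serpina3m, Serpina3n, Orm2, Cdo1, Zbtb16 and Mmp10 among them. The probes of these named genes were not above background on every macrophage array. Part of the residual spread behind their calls is therefore not from measured levels. Of the 12 genes that passed the first fit, 9 passed this one.

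The RAW 264.7 arrays, with the same treatments at the same positions of the other slide, did not show these changes at this size in both comparisons. Of the 48 genes, 12 of the higher and 5 of the lower were measured there, and 0 of the 17 passed 2-fold in the same direction in both macrophage comparisons. Their median mean difference was 0.24 in macrophages against 1.43 in 3T3-L1 cells for the higher genes, and 0.10 against -1.48 for the lower. Fkbp5 had 0.33 and 0.19 in macrophages, Cyb561 -0.23 and -0.07, and Mmp9 -0.26 and -0.33. A single macrophage comparison passed 2-fold for Selenop (1.81 and -0.42), Ly6c1 (1.16 and 0.08) and Fabp4 (0.34 and 1.14). Across all genes, 4 were 2-fold higher in both comparisons in macrophages (0.0364%) and 0 were 2-fold lower. A direct test of the difference between the lines by limma called 0 of 10995 genes after adjustment, with 828 (7.53%) at an unadjusted p under 0.05. Among the 17 genes, which were chosen for their size in 3T3-L1 cells so that the next count partly restates the choice, 10 of the 12 higher and 5 of the 5 lower had an unadjusted p under 0.05, with the smallest adjusted p, 0.17, for Cyb561, whose change was larger in 3T3-L1 cells by 2.16 (SE 0.23). Among the 17 genes, no change is therefore shown to be particular to 3T3-L1 cells by that test.

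**Figure D5:**
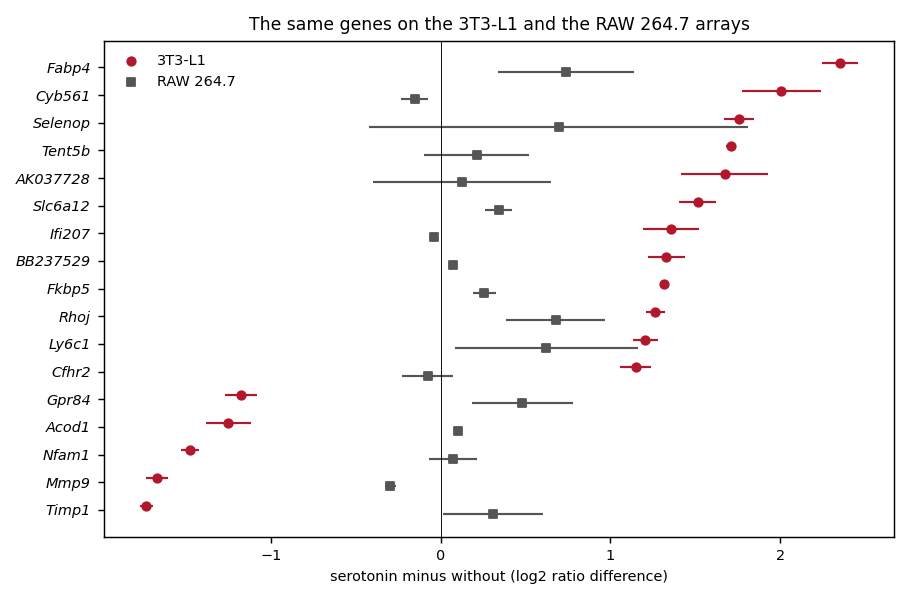
For the 17 genes called in 3T3-L1 cells and also measured on all macrophage arrays, the x axis is the log2 ratio difference with serotonin minus without; symbols are the mean of both comparisons and lines join the 2 single values, red circles for 3T3-L1 and grey squares for RAW 264.7 cells. The 3T3-L1 lines lie past 1 on either side of 0, while the macrophage means lie between -0.30 and 0.74. Single macrophage values reach 1.81, for Selenop.

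Some genes crossed the background between the groups and have only a bound. In Cy5, 275 genes were well above background on both arrays with serotonin and on neither without it, and 64 genes the reverse. These counts are out of 20886 genes named through RefSeq and 11511 other names on the array. The Cy5 signal was brighter on the arrays with serotonin, as given above. Few of the genes that crossed the background differed by 2-fold or more on the bound by at least 1 probe. In all, 7 genes were higher, among them Serpina3c and Ear2 (at least 2.54-fold), a ribonuclease. Trim63, a ubiquitin ligase of muscle that glucocorticoids are known to raise, was another, at least 2.34-fold higher by 1 probe and 1.31-fold by another. Another 8 were lower, among them Msr1 (at least 2.5-fold), the macrophage scavenger receptor, and Myl2 (at least 2.38-fold), a myosin light chain. These genes were chosen after their values were seen.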

How the data were processed

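The RNA of 3T3-L1 and RAW 264.7 cells was hybridised by the authors to Agilent 4x44K two-colour arrays and read with Agilent Feature Extraction 10.5.1.1, per the submitters' processing notes. The deposited scanner files hold median signal and background intensity per spot and channel, Feature Extraction's processed intensity, and its log10 ratio (Cy5 over Cy3) and the error of that ratio; the error is treated as a score, deposited by the authors with no stated level. The deposited series matrix holds the same log10 ratios within 0.005. The reference is an equal mixture of all samples by the labels and untreated cells grown alone by the methods, and is shared by all arrays. The deposited p-values of single ratios were not used.

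Median signals were corrected with normexp (offset 50) and normalised by loess within arrays in limma 3.58.1 (R 4.3.3); control and outlier spots were left out. Probes of a gene were averaged where Cy5 and Cy3 both stood well above background on every array in a comparison. Of 39429 probes, 27508 (69.8%) were named through RefSeq (GRCm38.p6); other names are those of the files. Calls were a 2-fold change in both comparisons, or limma on 8 arrays with cortisol and serotonin as additive effects in each line (2 residual degrees of freedom, Benjamini-Hochberg at 0.05), tested on simulated data. The number of arrays limits the precision. The members, the 30 gene lists and the naming rule were chosen with earlier results of these data known. The rule named the 12 largest rises and falls called in both comparisons, genes passing limma, and up to 8 members of each list. Fixed serotonin, glucocorticoid and adipocyte genes were named as well. The list members were taken for the size of their differences, so that they are not typical of their lists. Other backgrounds, normalisations, filters and fits were alternatives; the fit over genes measured in 3T3-L1 cells, the counts of genes with a stable Cy3 signal and centring over measured genes were added after seeing the data. The results of 1 gene are not reported here.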

Additional observations from a re-analysis of the deposited data

Results flagged for a closer look

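In the limma fit over genes measured in 3T3-L1 cells, which was added after seeing the data, the fitted serotonin effect in 3T3-L1 minus that in RAW 264.7 cells was 3.74 for Serpina3m and 2.96 for Serpina3n on the log2 scale, past the adjusted threshold. The probes of both genes were not well above background on every array of RAW 264.7 cells, and both entered this fit through the arrays of 3T3-L1 cells, where they are high. The macrophage side of each value is therefore not a measured level, and no difference between the cell lines is shown by it.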

How the results depend on the processing

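For the named genes called in both comparisons, all 325 recomputed values kept their direction. They include each comparison alone, where the call had fixed the direction in advance. They also include the series matrix, which repeats the scanner software's ratios. In the single comparisons, median centring kept the direction in both for 12 of the 16 lower genes, and scaling between arrays for 31 of the 32 higher and 14 of the 16 lower. Over all named genes, 588 recomputed values moved by more than the spread of both comparisons and 1845 did not. For a named gene, each comparison alone lies within that spread by construction and so counts as not moved. Over the gene lists, 85 moved and 234 did not. Median centring turned the sign for 87 of 229 named genes and 18 of 29 list medians, and scaling for 45 and 7. Total counts of genes under each setting differed from the reported ones by over 1.5 times as follows. Against 32 genes 2-fold higher in both comparisons, median centring in place of loess gave 516, Cy5 alone 90, a stricter filter on dim probes 15 and a 1.5-fold threshold 162. Against 16 lower genes, Feature Extraction's processed signals and the series matrix each gave 37, median centring 2, scaling between arrays 31, Cy5 alone 25, the stricter filter 9 and the 1.5-fold threshold 105. Leaving out 1 array leaves 1 comparison, with 67 to 176 higher and 68 to 97 lower genes. Against limma's 8 higher genes, processed signals and the series matrix each gave 1, median centring 4605, scaling 0, Cy5 0, no filter 23, the arrays of 3T3-L1 cells alone 90 and the added fit 15; leaving out 1 array gave 0 (any array of 3T3-L1 cells) to 90. Against limma's 4 lower genes, processed signals, the stricter filter and the series matrix each gave 2, median centring 1, scaling 0, Cy5 0, and 3T3-L1 cells alone 60, with 0 to 60 on leaving out 1 array. At an unadjusted p under 0.05, scaling called 1169 genes and Cy5 alone 436. The difference between the cell lines, with 0 genes, had 10 under median centring, 3 without a filter, 2 in the added fit, and 0 to 29 on leaving out 1 array. Leaving out 1 array leaves no residual degree of freedom in its cell line, so the limma counts without it do not tell how far calls rest on single arrays. The cause of the other differences was not tested. Dim probes limit these results: fewer than 1 in 2 spots were well above background. No paired analysis was possible because each condition had 1 array and the replicate number is only a name.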
